A study of Vachellia cornigera with 24 samples.

Results

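The secondary cell wall genes described here are CESA4 (AT5G44030), FLA11 (AT5G03170), COBL4 (AT5G15630), MYB46 (AT5G12870) and LAC4 (AT2G38080). They are 5 of the 12650 genes with deposited normalised counts from nectaries of Acacia cornigera, taken as named loci. Each row carries the Arabidopsis locus closest to it and may stand for more than 1 acacia transcript. All 5 passed the minimum mean of 10 normalised counts for testing, as did 12264 genes in all.

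Xylem vessels and fibres carry water and stiffen the plant, and once they stop growing they build a thick inner wall of cellulose, xylan and lignin. In Arabidopsis, NAC transcription factors of the NST and VND groups switch on MYB46, which activates genes for each of these polymers. A nectary is a secreting gland served by vascular strands, so RNA from whole nectaries holds a contribution from xylem beside that of the secreting tissue.

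The nectaries lie outside the flower and feed resident ants (Pseudomyrmex ferrugineus). In the field, 4 groups had their ants disturbed. There were 3 libraries after 2 days without ants, 3 from a replacement titled Gracilis, 2 from nectaries given gut contents (whose is not stated) and 1 titled as having its ants replaced after 2 days, taken at 9 am (with which ants is not stated). The labels give no clock time for the other ant treatments. The time course is taken here to include 3 libraries of 8 am, which are titled controls. Their titles give no day, so their place before or after the other times is not known. Its other libraries were 3 of 9 am, 3 of noon, 1 of 2 pm and 3 of 3 pm. A further 2 libraries were of 3 am of day 2. Each library pooled nectaries of several plants. Triplicates were planned, and libraries that failed quality control are missing from some groups.

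The library sums ran between 21084266 and 32520511 normalised counts, and the read depth behind them is unknown. Of 22 libraries with a replicate, 12 correlated best with a library of another group, among them all 3 of 9 am and all 3 of 3 pm. Replicates at these 2 times differed by 0.96 to 1.12 on the log2 scale (root mean square over the genes tested), against 0.25 to 0.77 within the other groups. Closest together were the noon libraries numbered 1 and 3 (0.25) and, without ants, numbers 2 and 3 (0.31). Whether either pair is a repeat of 1 pool is not known. The 5 nectary marker genes (SWEET9, CWINV4, CWINV2, PIN6 and BOP1) were above 0 in every library, which says little, since only 1 to 249 of the 12650 genes were at 0 in a library. Their sum ran between 11594 and 309460 normalised counts.

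CESA4, FLA11, COBL4 and MYB46 were far lower in all 3 replicated ant treatments than in the 8 am controls, by 11.3-fold to 42.8-fold, and LAC4 did not pass the test in any of them. In the time course the same 4 genes were lower at 3 pm than at 8 am, and LAC4 was higher at noon than at 8 am. The plot of normalised counts in each library shows these levels gene by gene.

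**Figure D1:**
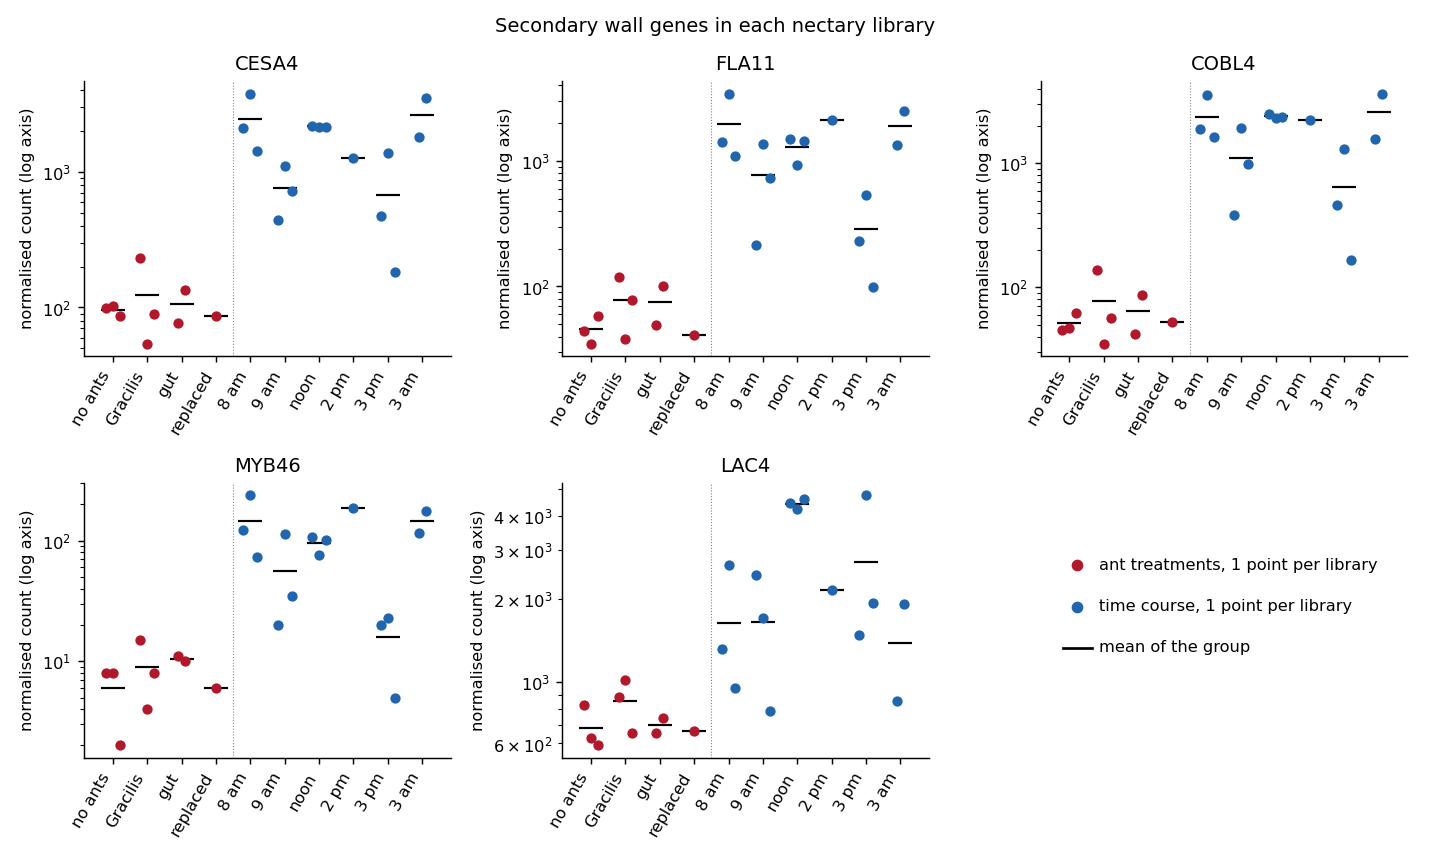
Normalised counts (log axis) of the 5 secondary wall genes, 1 point per library, with ant treatments in red at the left, the time course in blue at the right, and a bar at the mean of each group. In CESA4, FLA11 and COBL4 no ant-treatment library exceeds 230 normalised counts, whereas LAC4 spans 590 to 1016 in those libraries.

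CESA4 encodes a catalytic subunit of the cellulose synthase complex that makes secondary walls. Its level was 99, 102 and 87 normalised counts without ants, 230, 54 and 89 with Gracilis, 77 and 135 with gut contents and 86 with replaced ants. At 8 am it was 2092, 3764 and 1430. Each of the 9 ant-treatment libraries lay below each 8 am library. Over all genes tested, groups did not overlap with 8 am in 53.2% without ants, 54.3% with Gracilis and 57.3% with gut contents.

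FLA11 encodes a fasciclin-like arabinogalactan protein, a cell surface glycoprotein of stems. It had 44, 35 and 58 normalised counts without ants, 118, 38 and 78 with Gracilis, 49 and 101 with gut contents and 41 with replaced ants, against 1410, 3428 and 1089 at 8 am. COBL4 encodes a membrane-anchored COBRA-like protein needed for cellulose of secondary walls. It had 45, 47 and 62 normalised counts without ants, 139, 35 and 57 with Gracilis, 42 and 86 with gut contents and 52 with replaced ants, against 1877, 3542 and 1636 at 8 am. In both genes the ant treatments and the 8 am controls did not overlap.

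MYB46 encodes the transcription factor that activates secondary wall genes. It was at 8, 8 and 2 normalised counts without ants, 15, 4 and 8 with Gracilis, 11 and 10 with gut contents and 6 with replaced ants, against 122, 238 and 73 at 8 am. Values this low rest on few reads, and how many is not known. LAC4 encodes a laccase, an enzyme that oxidises lignin precursors in the wall. It had 826, 629 and 590 normalised counts without ants, 881, 1016 and 657 with Gracilis, 657 and 740 with gut contents and 665 with replaced ants, against 1314, 2659 and 953 at 8 am. The Gracilis libraries overlapped the 8 am range in LAC4, and the other ant groups lay below it.

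In limma's test across all genes, with Benjamini-Hochberg adjustment, 4 of the 5 genes fell after 2 days without ants relative to 8 am, where 15.9% of all genes tested fell and 27.5% changed in either direction. CESA4 averaged 96 ± 7.94 normalised counts without ants and 2429 ± 1203 at 8 am (SD, n = 3 each), a log2 change of -4.53 ± 0.60 (SE, adjusted p = 8.92e-05) or a level 23.2-fold lower on the log2(normalised count + 1) scale. The log2 change was -5.25 ± 0.65 for FLA11 (adjusted p = 5.96e-05), -5.42 ± 0.66 for COBL4 (adjusted p = 5.43e-05) and -4.38 ± 0.67 for MYB46 (adjusted p = 0.000259). COBL4 ranked 24 among the 12264 changes ordered from the most negative, FLA11 33, CESA4 75 and MYB46 92. For LAC4 the log2 change was -1.15 ± 0.45, with an adjusted p of 0.0659, and it passed the threshold when the third 8 am library was left out (adjusted p = 0.0418) and in a fit of these groups alone (0.0362). In bulk tissue, fewer xylem cells in a nectary and less of these RNAs in each cell cannot be told apart.

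With Gracilis the same 4 genes passed the test, against a background of 16.7% of all genes that fell and 30.4% that changed. Their log2 changes from 8 am were -4.42 ± 0.60 for CESA4, -4.60 ± 0.65 for FLA11, -5.06 ± 0.66 for COBL4 and -3.85 ± 0.67 for MYB46, with adjusted p-values in limma between 8.26e-05 and 0.000556. With gut contents the 4 genes fell as well, where 12.9% of all genes fell and 22% changed. There the log2 changes were -4.44 ± 0.67, -4.61 ± 0.73, -5.18 ± 0.74 and -3.50 ± 0.75 in the same order of genes, with adjusted p-values in limma between 0.000273 and 0.0038. LAC4 changed by -0.83 ± 0.45 with Gracilis (adjusted p = 0.17) and by -1.10 ± 0.50 with gut contents (adjusted p = 0.125). In limma LAC4 had an unadjusted p under 0.05 without ants and with gut contents, as had 39.6% and 35.7% of all genes, but not with Gracilis. These 3 comparisons share the 8 am libraries, so their values do not bear on each other independently.

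The 8 am controls may differ from the ant treatments in hour and day as well as in ants, and these cannot be told apart. Against the 9 am libraries, a comparison chosen after seeing the data, 4 of the 5 genes fell without ants (10.6% of all genes fell, 27.5% changed) and 4 with Gracilis (9.95% fell, 27% changed). With gut contents 3 fell (8.17% of all genes fell, 22.3% changed), and MYB46 had a log2 change of -1.95 with an adjusted p of 0.0713. The changes were smaller against 9 am, as in CESA4, which was 7.29-fold lower without ants than at 9 am.

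Between ant treatments no difference in these genes was detected by limma. Neither Gracilis nor gut contents moved any of the 5 genes from its level without ants at an adjusted p under 0.05, nor at an unadjusted p under 0.05. Over all genes, 0% were called for Gracilis (76 genes at an unadjusted p under 0.05) and 0.0652% for gut contents. The intervals are wide. For CESA4 the 95% interval of the log2 difference was -1.14 to 1.37 for Gracilis and -1.31 to 1.49 for gut contents. The single library with replaced ants, which cannot be tested, had 86 normalised counts of CESA4, just under the range without ants (87 to 102), and lay within that range in the other 4 genes.

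**Figure D2:**
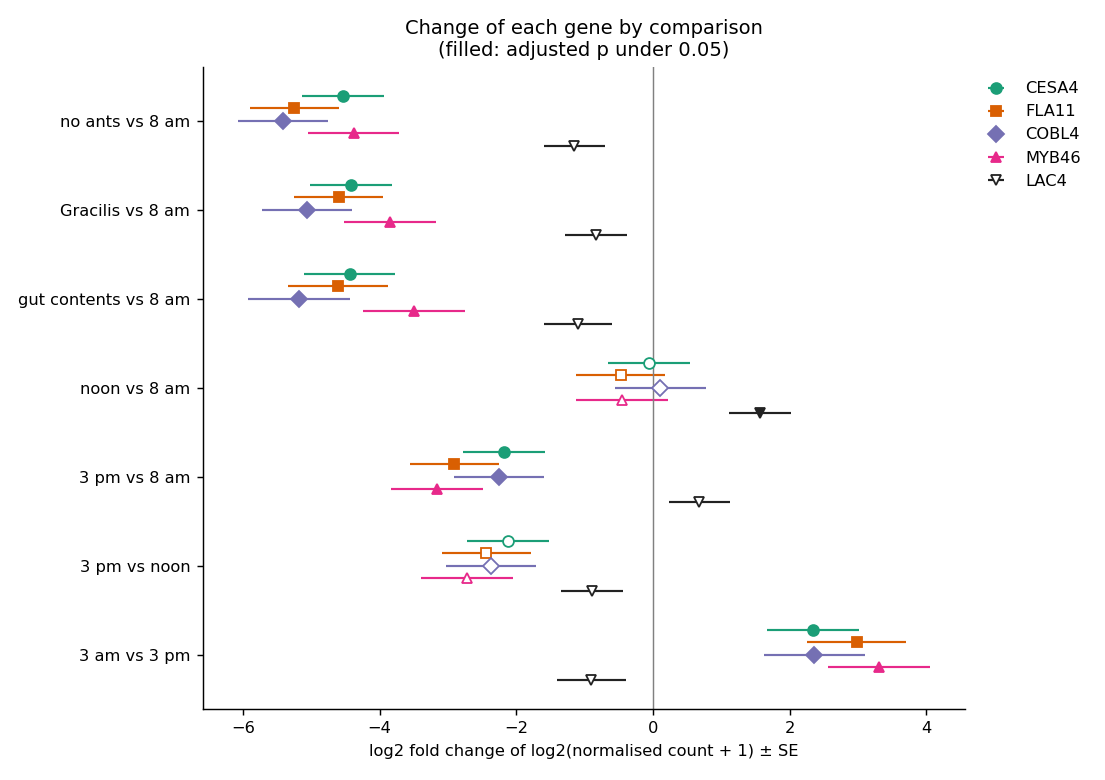
Log2 fold change of each gene (mean ± SE on the log2(normalised count + 1) scale) in 7 comparisons, with filled symbols where the adjusted p in limma was under 0.05. LAC4 (black triangles) stands apart from the other 4 genes in each ant treatment, at noon and at 3 pm.

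Across the day, the 5 genes varied among 8 am, 9 am, noon, 3 pm and 3 am in a moderated F test in limma, where 39.7% of all genes passed. Adjusted p-values were 0.0114 for CESA4, 0.00774 for FLA11, 0.0238 for COBL4, 0.00514 for MYB46 and 0.0241 for LAC4. In a fit of the time groups alone, COBL4 (adjusted p = 0.059) and LAC4 (0.0892) missed the threshold, and LAC4 also missed it without any 1 noon library (0.0673 to 0.0781). With near-identical libraries taken as 1, COBL4 (0.0594) and LAC4 (0.0961) missed it too.

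For CESA4, the 8 am libraries had 2092, 3764 and 1430 normalised counts, those of 9 am 442, 1105 and 715, those of noon 2187, 2152 and 2119, that of 2 pm 1271, those of 3 pm 471, 1381 and 184, and those of 3 am 1790 and 3474. For COBL4, the 8 am libraries had 1877, 3542 and 1636 normalised counts, those of 9 am 383, 1927 and 988, those of noon 2506, 2337 and 2353, that of 2 pm 2249, those of 3 pm 460, 1307 and 166, and those of 3 am 1566 and 3650. Both genes were low in the third 3 pm library and high in the second 8 am and the second 3 am library.

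For FLA11, the 8 am libraries had 1410, 3428 and 1089 normalised counts, those of 9 am 212, 1362 and 728, those of noon 1498, 922 and 1434, that of 2 pm 2111, those of 3 pm 230, 537 and 99, and those of 3 am 1345 and 2473. For MYB46, the 8 am libraries had 122, 238 and 73 normalised counts, those of 9 am 20, 114 and 35, those of noon 108, 76 and 101, that of 2 pm 187, those of 3 pm 20, 23 and 5, and those of 3 am 116 and 176. In both, as in CESA4 and COBL4, every 3 pm library lay below every library of 8 am, noon and 3 am. Groups do not overlap in 40.8% of all genes for 3 pm and 8 am, 20.3% for 3 pm and noon and 41.1% for 3 pm and 3 am.

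Relative to 8 am, CESA4, FLA11, COBL4 and MYB46 fell at 3 pm (19% of all genes fell, 36.8% changed). MYB46 averaged 16 ± 9.64 normalised counts at 3 pm and 144.3 ± 84.7 at 8 am (SD, n = 3 each), a log2 change of -3.16 ± 0.67 (adjusted p = 0.00188 in limma). The log2 change was -2.91 ± 0.65 in FLA11 (adjusted p = 0.00272), -2.25 ± 0.66 in COBL4 (0.0134) and -2.18 ± 0.60 in CESA4 (0.00899). The calls for CESA4 and COBL4 rest on the third 3 pm library, since without it their adjusted p-values were 0.052 and 0.0769, and in a fit of these groups alone they were 0.0675 and 0.0609. Without the second 8 am library that of COBL4 was 0.0619.

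Relative to 3 pm, the same 4 genes were higher at 3 am (10.3% of all genes rose, 19.6% changed). The log2 changes were 2.34 ± 0.67 for CESA4, 2.98 ± 0.73 for FLA11, 2.36 ± 0.74 for COBL4 and 3.31 ± 0.75 for MYB46, with adjusted p-values in limma of 0.0224, 0.0117, 0.0329 and 0.00824 in that order. Groups did not overlap in these 4 genes, as in 41.1% of all genes. Without the second 3 am library none of the 4 passed (adjusted p 0.0758 to 0.252), and in a fit of these groups alone, whose replicates spread widely, none passed either (0.115 to 0.205). With the near-identical noon libraries and those without ants taken as 1 each, which changes the shared spread, COBL4 missed the threshold (0.0541). Without the first 3 am library, or without the third 3 pm library, FLA11 and MYB46 passed and CESA4 and COBL4 did not.

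At 3 pm against noon no gene of the 12264 was called (0%, with 1798 genes at an unadjusted p under 0.05). The 4 genes had log2 changes of -2.12 ± 0.60 in CESA4, -2.44 ± 0.65 in FLA11, -2.37 ± 0.66 in COBL4 and -2.72 ± 0.67 in MYB46, each with an adjusted p of 0.145 in limma and no overlap between the groups, as in 20.3% of all genes. Without the second 3 pm library all 4 passed (adjusted p 0.00427 to 0.0153), where 11.1% of all genes were called. Between 9 am and 8 am none of the 5 genes was called (14.2% of all genes were), and CESA4, FLA11 and MYB46 had an unadjusted p under 0.05. CESA4 had a log2 change of -1.67 ± 0.60 at 9 am relative to 8 am (adjusted p = 0.0691), and it passed in a fit of these groups alone that paired libraries by their number (adjusted p = 0.0357, with 3.86% of all genes called). MYB46 passed when the second 9 am library was left out (adjusted p = 0.0458, with 9.84% of all genes called).

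LAC4 followed another course through the day. The 8 am libraries had 1314, 2659 and 953 normalised counts of LAC4, those of 9 am 2448, 1707 and 788, those of noon 4453, 4232 and 4584, that of 2 pm 2148, those of 3 pm 1478, 4747 and 1937, and those of 3 am 856 and 1919. The noon libraries were close together and above every library of 8 am, 9 am and 3 am, and groups do not overlap in 65.7%, 39.1% and 69% of all genes in these comparisons. LAC4 averaged 4423 ± 178 normalised counts at noon and 1642 ± 899 at 8 am (SD, n = 3 each), a log2 change of 1.57 ± 0.45 (adjusted p = 0.0114 in limma), and it was the only 1 of the 5 genes called there, where 19.7% of all genes rose and 37.4% changed.

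The rise of LAC4 at noon depended on the libraries kept. Without the third 8 am library its adjusted p was 0.0647. Relative to 9 am, LAC4 was 2.97-fold higher at noon (adjusted p = 0.0342 in limma; 8.33% of all genes rose, 12.4% changed), a call that was lost without the third 9 am library or without any 1 noon library (adjusted p 0.0937 to 0.169), with median-of-ratios scaling (0.0582) and in a fit of these groups alone (0.064). In that fit CESA4 passed instead, with an adjusted p of 0.0392 (0.0776 with all groups). At 3 am LAC4 was 3.45-fold lower than at noon (adjusted p = 0.0191 in limma), where 10.4% of all genes fell and 20.3% changed. This call was lost without the third noon library (adjusted p = 0.0511). Without the first 3 am library the log2 change shrank from -1.79 to -1.2. With noon libraries 1 and 3 taken as 1 library, both of these calls were lost (0.122 against 9 am and 0.0637 for 3 am against noon).

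Against 8 am, no gene of the 5 was called at 3 am, where 0.832% of all genes were, and none had an unadjusted p under 0.05. Their log2 changes lay between -0.22 and 0.15, with 95% intervals such as -1.25 to 1.56 in CESA4. Relative to 9 am, none of the 5 was called at 3 am or at 3 pm in limma, nor was any gene at all (0% in both). That 0 rests on single libraries. For 3 am against 9 am, 869 genes were called without the third 9 am library and 1 without the first 3 am library. For 3 pm against 9 am, 800 were called without the first 9 am library, 113 without the second, 426 without the first 3 pm library and 367 without the third, and none of the 5 genes was called in any of these fits. With all libraries, at an unadjusted p under 0.05, there were 1610 genes for 3 am, among them CESA4, FLA11 and MYB46, and 2255 for 3 pm, among them MYB46.

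Within a library, dividing by CESA4 removes what the genes share. The log2 ratio of LAC4 to CESA4, taken as a difference of log2(normalised count + 1), averaged 2.80 ± 0.22 without ants, 3.00 ± 1.14 with Gracilis and -0.59 ± 0.08 at 8 am (SD, n = 3 each). At noon it was 1.04 ± 0.07 (SD, n = 3). Each of these 3 groups lay above 8 am in every library, and the exact 2-sided permutation test of each against 8 am gave p = 0.1, the smallest that 3 against 3 libraries allow (adjusted over the 3 tests, 0.1). The ratio of LAC4 to CESA4 lay between 1.93 and 4.21 in the 9 ant-treatment libraries and was lowest at 3 am, at -1.06 and -0.86. Libraries of 3 pm and 9 am overlapped the ant treatments, since the third 3 pm library (3.39) was above 8 of those 9 and the first 9 am library (2.47) above 2.

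The other ratios moved less. That of COBL4 to CESA4 lay between -1.12 and -0.48 in the 9 ant-treatment libraries and between -0.21 and 0.82 in the 15 libraries of the time course, so these did not overlap. That of FLA11 to CESA4 averaged -1.08 ± 0.47 without ants and -0.37 ± 0.22 at 8 am (SD, n = 3 each), and these did not overlap, though narrowly, since the highest value without ants was -0.58 and the lowest at 8 am was -0.57. That of MYB46 to CESA4 averaged -3.95 ± 0.80 without ants, -5.09 ± 0.69 at 3 pm and -4.11 ± 0.15 at 8 am (SD, n = 3 each). For none of these ratios was the share of all genes that separate in the same way computed. In the ant treatments they rest on low values, as in COBL4 with 35 to 139 normalised counts.

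**Figure D3:**
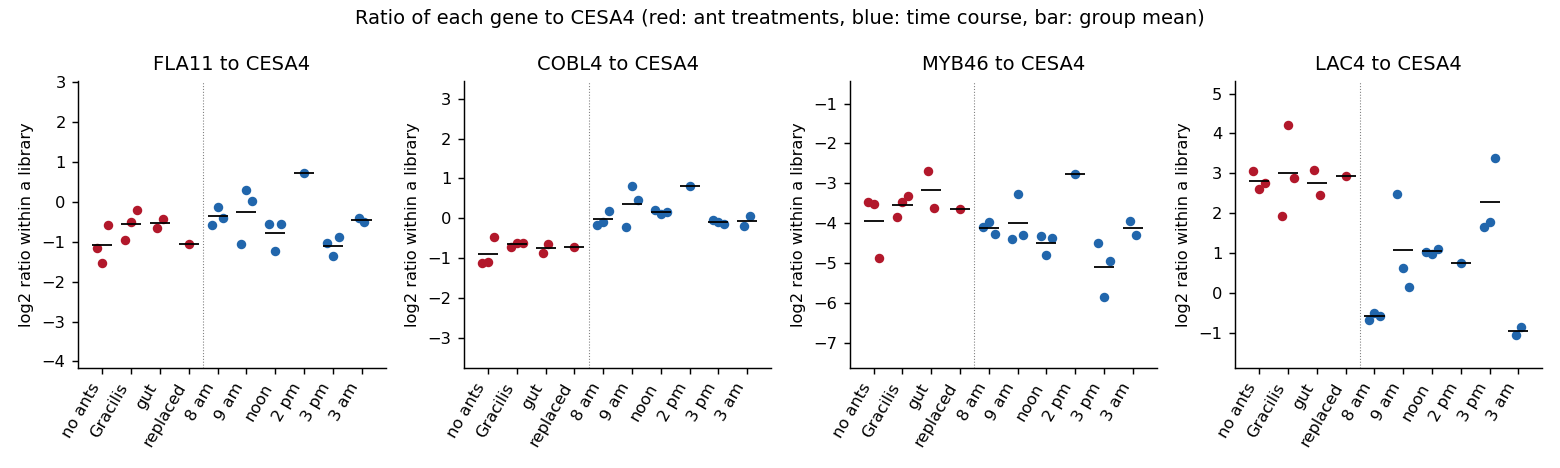
Log2 ratio of FLA11, COBL4, MYB46 and LAC4 to CESA4 within each library, with ant treatments in red, the time course in blue and a bar at each group mean. LAC4 to CESA4 spans about 5 log2 units, with 8 am and 3 am below 0 and every ant-treatment library above 1.9, whereas COBL4 to CESA4 stays between -1.12 and 0.82.

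Over the 24 libraries the first 4 genes ran close together, with Pearson's r of 0.99 between CESA4 and COBL4, 0.985 between FLA11 and COBL4 and 0.975 between CESA4 and FLA11 on the log2 scale. MYB46 had r of 0.933 to 0.962 with these 3 genes. LAC4 had r of 0.573 to 0.714 with the other 4. These r describe libraries that fall into groups with different levels. With the group means taken out (22 libraries), r was 0.959 for CESA4 and COBL4, 0.762 to 0.805 for MYB46 with CESA4, FLA11 and COBL4, and 0.286 to 0.467 for LAC4 with the other 4.

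Apart from the single 2 pm library, the order of the group means was much the same for the first 4 genes. That library lay above every other group mean in FLA11 (2111 normalised counts) and MYB46 (187). In CESA4 and COBL4 it lay below the means of 8 am, noon and 3 am. The 2 pm library also had the largest sum over all genes of any library (32520511 normalised counts) and only 1 gene at 0. Whether its place in FLA11 and MYB46 follows from that was not tested. In CESA4 the 3 am libraries averaged 2632 normalised counts, followed by 8 am (2429), noon (2153), 2 pm (1271), 9 am (754) and 3 pm (678.7), and then by 124.3 with Gracilis, 106 with gut contents, 96 without ants and 86 with replaced ants. In all 5 genes the 4 ant groups held the 4 lowest means. Where neighbours in the order were tested, none differed in any of the 5 genes (adjusted p 0.22 to 1), and the step between 3 pm and the highest ant group was not tested. Single libraries crossed that step, since CESA4 had 184 in the third 3 pm library and 230 in the first Gracilis library. LAC4 had its highest mean at noon, ahead of 3 pm at 2721 and 2 pm at 2148.

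The wider pathway was described with lists of 65 Arabidopsis loci for secondary walls, of which 49 are in the table and 48 were tested (the 5 genes are not among them). Relative to 8 am, 29 of the 48 fell and 5 rose without ants, 27 fell and 5 rose with Gracilis, and 28 fell and 5 rose with gut contents. The median log2 change of the 48 was -1.84 without ants, -1.65 with Gracilis and -2.01 with gut contents, beside -0.05, -0.03 and -0.01 over all genes tested. Of all genes tested, 15.9% fell and 11.6% rose without ants, 16.7% fell and 13.7% rose with Gracilis, and 12.9% fell and 9.12% rose with gut contents.

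All 4 cellulose genes tested fell in each of the 3 ant treatments. CESA7 and CESA8, the partners of CESA4 in the cellulose synthase complex, averaged 144.7 and 174.3 normalised counts without ants and 3260 and 2647 at 8 am, with log2 changes of -4.39 ± 0.60 (adjusted p = 0.000116 in limma) and -3.79 ± 0.56 (adjusted p = 0.000187). FLA12, a close relative of FLA11, changed by -5.53 ± 0.92 without ants (adjusted p = 0.000451). Of 8 xylan genes 7 fell in each ant treatment. Among them IRX9, which extends the xylan backbone, changed by -4.70 ± 0.69 and GAUT12, which acts at the xylan chain end, by -4.85 ± 0.67 without ants. The exception was FRA8, also of the chain end, which averaged 2207 normalised counts without ants and 1527 at 8 am (adjusted p = 0.151).

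Lignin genes were more mixed. Of 16 tested, 10 fell without ants, 9 with Gracilis and 9 with gut contents, and none rose. PAL1, the entry enzyme of phenylpropanoid synthesis, changed by -3.83 ± 0.48 without ants relative to 8 am (adjusted p = 5.96e-05), and the peroxidase PRX72 by -4.15 ± 0.71 (0.000532). The laccase LAC17 changed by -1.46 ± 0.52 (0.0451). CCR1, the first enzyme particular to lignin precursors, changed by -0.94 ± 0.39 (0.0828), F5H by -0.42 ± 0.19 (0.0999) and the laccase LAC11 by -0.56 ± 0.64 (0.545). The laccase LAC17 thus passed the test where LAC4 and LAC11 did not, and the difference between these laccases was not tested.

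Regulators went both ways. Of 15 tested, 6 fell and 5 rose without ants. NST1, the NAC switch of fibres, averaged 89.67 normalised counts without ants and 588.7 at 8 am (log2 change -2.65 ± 0.57, adjusted p = 0.00257), and MYB103, a regulator of syringyl lignin, 4.33 and 304.7 (-6.30 ± 0.94, adjusted p = 0.000213). VND7, the NAC switch of vessels, had 798, 1080 and 1217 normalised counts without ants against 407, 418 and 282 at 8 am (1.48 ± 0.34, adjusted p = 0.00398). MYB4, a repressor of phenylpropanoid genes, had 21060, 19342 and 19807 without ants against 3933, 3267 and 3235 at 8 am (2.53 ± 0.24, adjusted p = 1.86e-05). KNAT7, a repressor of secondary wall genes, averaged 5475 normalised counts without ants and 2901 at 8 am (0.92 ± 0.25, adjusted p = 0.0117).

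The same 5 regulators rose with Gracilis and with gut contents as without ants. The other members of that set, named here after their values were seen, are VNI2 and XND1, NAC factors that restrain xylem formation in Arabidopsis. VNI2 changed by 1.15 ± 0.26 (adjusted p = 0.00367) and XND1 by 1.53 ± 0.36 (0.00508) without ants.

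Of 5 genes listed for the death of vessels, the metacaspase MC9 and TED6 fell in each ant treatment (both named after their values were seen). TED6 is a membrane protein that binds cellulose synthase, not an enzyme of self-digestion. XCP1, a protease that clears the contents of dying vessels, averaged 1904 normalised counts without ants and 2073 at 8 am (log2 change -0.05 ± 0.35, adjusted p = 0.925). Primary wall genes, which act in growing cells of all kinds, fell too, 6 of 6 in each ant treatment. CESA1, CESA3 and CESA6 of the primary wall complex changed by -1.19 ± 0.22, -0.96 ± 0.27 and -1.61 ± 0.37 without ants, and COB, a relative of COBL4, by -1.37 ± 0.26, with adjusted p-values in limma of 0.00103 to 0.0138.

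**Figure D4:**
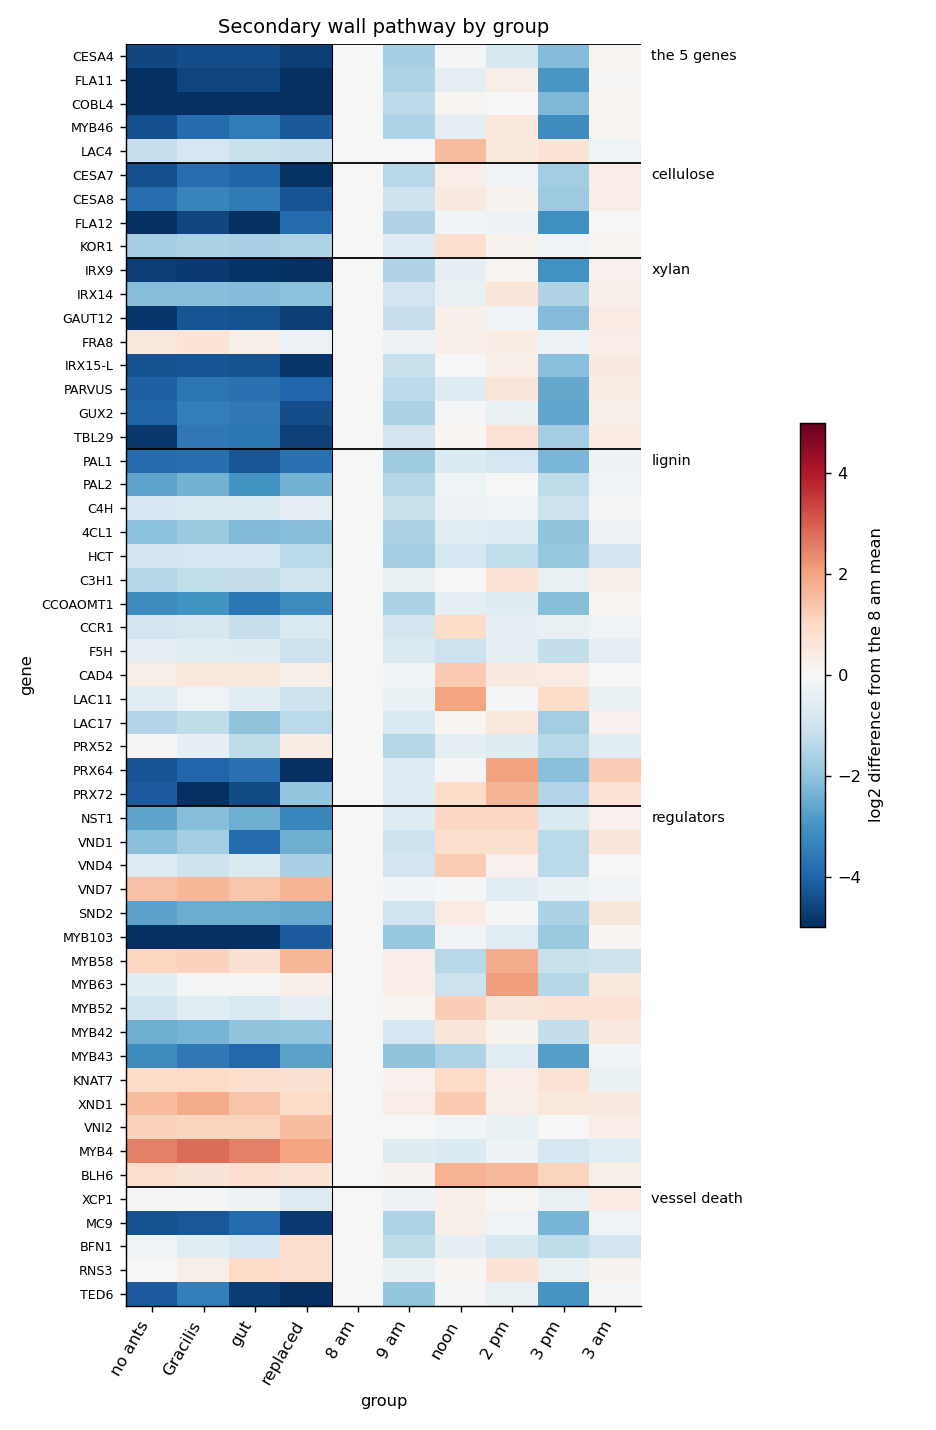
Difference of each group mean from the 8 am mean on the log2(normalised count + 1) scale (red higher, blue lower, differences beyond 5 in the darkest tone) for the 5 genes and 48 of the 49 pathway loci in the table, ordered by role. Blue fills the cellulose and xylan rows in the 4 ant groups apart from FRA8, while VND7, KNAT7, XND1, VNI2 and MYB4 are red there.

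In the time course, 31 of the 48 pathway genes passed the F test, beside 39.7% of all genes. At 3 pm relative to 8 am, 28 fell and 2 rose (19% and 17.8% of all genes; median -1.38, over all genes 0), and at 3 am relative to 3 pm, 24 rose and 1 fell (10.3% and 9.26% of all genes; median 1.54, over all genes -0.01). CESA7 changed by 2.09 ± 0.67 (adjusted p = 0.037), CESA8 by 2.18 ± 0.62 (0.0227), IRX9 by 3.27 ± 0.77 (0.00945) and LAC17 by 1.94 ± 0.58 (0.0272) at 3 am relative to 3 pm, while KNAT7 changed by -1.06 ± 0.28 (0.0157). At noon relative to 8 am, 7 of the 48 rose and 3 fell, smaller shares than over all genes (19.7% and 17.7%). LAC11 was among those that rose, as LAC4 did, with 127, 148 and 132 normalised counts at noon against 40, 55 and 17 at 8 am (1.98 ± 0.64, adjusted p = 0.0222 in limma). The laccase LAC17 had no higher mean at noon (1277, against 1470 at 8 am). F5H changed by -1.08 ± 0.19 (0.000331), MYB4 by -0.68 ± 0.24 (0.0321) and KNAT7 by 0.98 ± 0.25 (0.00548) at noon relative to 8 am.

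The genes most like the 5 were found by Pearson's r over the 24 libraries with the mean of their standardised log2 values, among 12259 other genes. CESA8 was first (r = 0.992), CESA7 second (0.988), then a cupredoxin family gene (AT1G72230, 0.988), laccase 10 (AT5G01190, 0.988), the xylan gene IRX15-L (0.986) and GAUT12 (0.984). The rest of the first 10 were AT3G15480 (described as fiber, DUF1218), a protein kinase gene (AT5G18500), AT1G79420 (DUF620) and a transmembrane protein gene (AT2G47360), each at 0.982. Laccase 10 had 206, 198 and 189 normalised counts without ants against 4138, 8145 and 4123 at 8 am, values that the choice by likeness already used.

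Of the 48 pathway genes tested, 15 were among the first 100 of that ranking, and 22 of the 358 genes with r of at least 0.9 belonged to the pathway. FRA8 (r = -0.203), F5H (-0.013) and VND7 (-0.795) stood far from the 5 genes. The lowest r over all genes were -0.937 for AT1G52340 (a Rossmann-fold protein), -0.932 for AT3G16565 (described by a tRNA synthetase domain), -0.931 for AT3G02150 (plastid transcription factor 1), -0.929 for AT2G46370 (a GH3 family gene) and -0.927 for AT3G46460 (ubiquitin-conjugating enzyme 13).

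Markers of other cells also moved with these comparisons, and their counts stand beside the 15.9% (no ants), 16.7% (Gracilis) and 12.9% (gut contents) of all genes that fell. The 5 phloem markers in the table summed to 12774 to 13455 normalised counts without ants, 13177 to 14017 with Gracilis, 13675 to 14314 with gut contents and 29543 to 39595 at 8 am, and 3 of 5 fell without ants, 2 with Gracilis and none with gut contents. That sum is mostly SEOR1 and SUC2. Only NAKR1 had a higher mean in the ant treatments (150 without ants, 70 at 8 am). The 8 photosynthesis markers summed to 55286 to 74245 without ants, 63896 to 74057 with Gracilis, 54696 to 69217 with gut contents and 122368 to 198911 at 8 am, and 4, 4 and 3 of them fell. The phloem and photosynthesis sums did not overlap between the ant treatments and 8 am. Neither did 53.2% of all genes tested without ants, 54.3% with Gracilis and 57.3% with gut contents.

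Of 4 cambium markers 2 fell without ants, 1 with Gracilis and 2 with gut contents. Their sum was 4826 to 5136 without ants, 5159 to 6447 with Gracilis and 4489 to 5955 with gut contents. At 8 am it was 4227 to 4364. This sum was mostly ATHB15, which averaged 4826 normalised counts without ants and 3682 at 8 am. The other cambium markers had lower means without ants. WOX4 averaged 74 without ants and 414.7 at 8 am, PXY 52.67 and 166.3, and ANT 18.67 and 53.67. The 5 nectary markers summed to 158701 to 304850 without ants, 170042 to 207472 with Gracilis, 186836 to 309460 with gut contents and 241735 to 295319 at 8 am, and 4 of 5 fell in each ant treatment, with SWEET9 as the exception. Most of this sum was SWEET9, which averaged 242100 without ants and 174600 at 8 am. The 5 epidermis markers summed to 5664 to 6537 without ants, 6688 to 8125 with Gracilis, 5599 to 6326 with gut contents and 16823 to 33141 at 8 am, and 1 of 5 (LTP1) fell in each ant treatment, a share near that of all genes. At 8 am this sum was mostly LTP1, which averaged 19050 there and 730 without ants. CER1 alone had a higher mean without ants (483, against 396 at 8 am). No marker of these lists was at 0 in any library, and their part in the result was not tested.

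At 3 pm the photosynthesis markers summed to 56848 to 82748 normalised counts against 122368 to 198911 at 8 am, and the nectary markers to 11594 to 27775 against 241735 to 295319. Phloem markers summed to 19162 to 57345 at 3 pm and 29543 to 39595 at 8 am. At noon, where LAC4 had its highest mean, the nectary markers summed to 22044 to 24358, the cambium markers to 7550 to 7993 and the photosynthesis markers to 81096 to 84924, against 241735 to 295319, 4227 to 4364 and 122368 to 198911 at 8 am. The nectary list did not move as 1. Means at 8 am, noon and 3 pm were 174600, 2450 and 9709 for SWEET9 and 85670, 17030 and 8023 for CWINV4. For CWINV2 they were 13990, 2893 and 1295. Those of PIN6 were 324.3, 744 and 428.7, and those of BOP1 495, 405.7 and 598.

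At 3 am relative to 3 pm, where 10.3% of all genes rose, 3 of 5 nectary markers (SWEET9, CWINV4 and CWINV2), 5 of 8 photosynthesis markers and 1 of 5 epidermis markers (LTP1) rose, and no phloem or cambium marker was called. The nectary markers summed to 97819 to 178036 at 3 am and 11594 to 27775 at 3 pm, the photosynthesis markers to 129269 to 164471 at 3 am and 56848 to 82748 at 3 pm, and the epidermis markers to 32528 to 43567 at 3 am and 5199 to 14885 at 3 pm. The part of these lists in the changes at 3 pm, noon and 3 am was not tested.

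**Figure D5:**
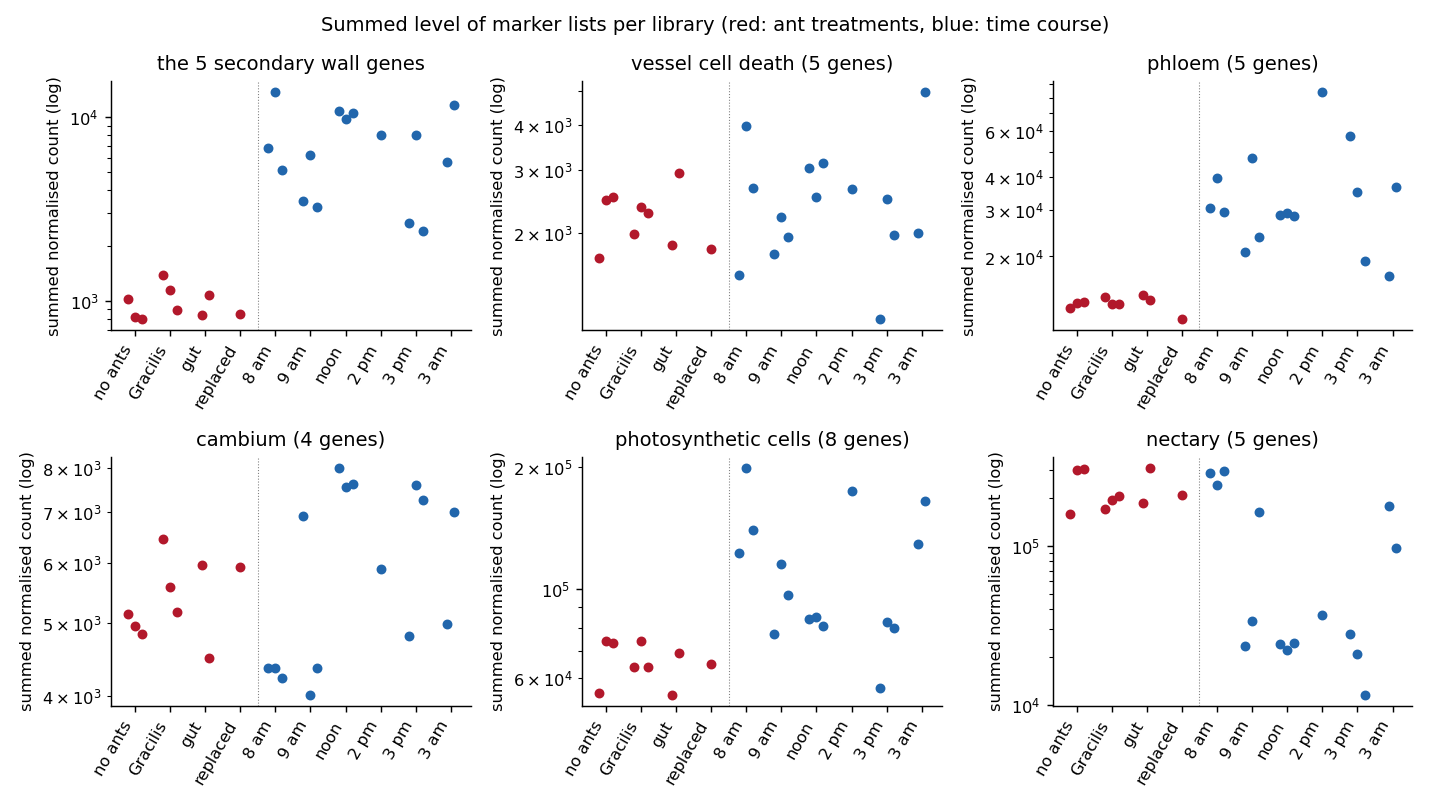
Summed normalised counts (log axes) of the 5 secondary wall genes and of 5 marker lists, 1 point per library, with ant treatments in red and the time course in blue. The secondary wall sum lies between 799 and 1383 in the 9 ant-treatment libraries and between 2391 and 13631 in the time course. In the ant treatments most of it is LAC4 (681.7 on average without ants). Phloem and photosynthesis sums are lower in the ant treatments than at 8 am, and vessel death sums overlap (1703 to 2524 without ants, 1526 to 3992 at 8 am). The vessel death sum is mostly XCP1 (means of 1904 without ants and 2073 at 8 am), and the cambium sum mostly ATHB15. Means of MC9 and TED6 were 3.333 and 8.667 without ants, against 106.7 and 237.3 at 8 am.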

How the data were processed

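The values are normalised counts, which the file headers and the labels tie to single libraries and which the authors deposited as whole numbers. They are treated as a score, since how the authors normalised them, and with which aligner, assembly and annotation, is not given in the sources used here. The headers give the Arabidopsis locus closest to each gene. The authors' 10 group means were not used. In no library did more than 94% of values under 60 lie on whole multiples of 1 step, so reads were not recovered and the depth is unknown.

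Values were analysed as log2(normalised count + 1), a scale that understates changes of low genes. Gene lengths are not given, so levels are compared within a gene only. One limma 3.58.1 fit in R 4.3.3 held all 24 libraries with a mean-variance trend and 10 group coefficients (14 residual and 3.657 prior degrees of freedom). It covered 12264 genes with a mean of at least 10, leaving out 386. The 15 comparisons of 2 groups and the F test over 5 times were 2-sided where a direction applies, adjusted by Benjamini-Hochberg over all genes tested, with a threshold of 0.05. They share 1 estimate of the spread, although 9 am and 3 pm replicates vary most. The code was tested on simulated data.

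Per the labels, replicates pool nectaries of different plants, and p-values measure the spread between these pools. Deviations of libraries with equal sample numbers correlated in every pair for 9 am with 8 am (r of 0.16 to 0.42) and for Gracilis with no ants (0.22 to 0.51), though no label says what the numbers share. Alternatives were the pseudocount, the filter, 2 scalings, a fit of the compared groups alone, that fit with a block, near-identical libraries merged, and each replicate left out. The comparison with 9 am was added after seeing the data.

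The 5 genes and the 11 lists (103 loci, 83 in the table) were chosen with earlier results of these data known. Genes named are the 5, a set of pathway genes written with the lists, and the 10 most like and 5 least like the 5 genes, apart from those said to be named after their values were seen. CTL2, IRX10, IRX15, GUX1, GXM3, 4CL2, CAD5, MYB83, SND1, NST2, VND6, SND3, MYB85, MYB20, XCP2 and TED7 were not analysed here, and MYB58 was below the filter. One gene of the lists is counted with its list but not reported here by itself.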

Additional observations from a re-analysis of the deposited data

How the results depend on the processing

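Of 75 changes of a gene in a comparison, none of the 23 called turned its direction under any alternative run, while 19 of the 52 uncalled did under at least 1. Quantile normalisation, a pseudocount of 10 and no filter on low values changed no call of the 5 genes. Leaving out 1 library at a time, 4 of the 5 genes were called with Gracilis and 4 with gut contents relative to 8 am, and 4 to 5 without ants. The counts were 0 to 4 for 3 am against 3 pm, 2 to 4 for 3 pm against 8 am, 0 to 4 for 3 pm against noon and 4 to 5 in the F test. They were 0 to 1 for 3 am against noon, for 9 am against 8 am, for noon against 8 am and for noon against 9 am, and 0 in each such fit of the other comparisons.

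With median-of-ratios scaling 0 were called for noon against 9 am, where the median change of all genes was 0.01, against 0.21 as deposited. This scaling also moved that median for 3 am against 9 am (0.02, as deposited 0.13), 3 pm against 9 am (-0.01, as deposited 0.14) and 9 am against 8 am (0, as deposited -0.14). With near-identical libraries taken as 1, 3 passed the F test, and 0 were called for 3 am against noon and for noon against 9 am. Fits of the compared groups alone (CESA4 in place of LAC4 for noon against 9 am) called 3 in the F test, 2 for 3 pm against 8 am and 0 for 3 am against 3 pm.

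A replicate block in the fit of the compared groups alone called 1 gene for 9 am against 8 am and 2 for 3 am against 3 pm. For noon against 9 am it called CESA4 (adjusted p = 0.0353 in limma) and lost LAC4 (0.0517). LAC4 passed relative to 8 am without ants (0.0335), with Gracilis (0.0228) and with gut contents (0.0222). Among those of these comparisons with 3 pairs, only in 9 am against 8 am did every same-numbered pair correlate above 0.1, and there all 6 libraries correlated best with their own number. For noon against 9 am 0 of 6 did. For no ants and for Gracilis against 8 am, 2 of 6 did. With 2 pairs, 4 of 4 did for gut contents against 8 am and for 3 am against 3 pm, too few pairs for the rule used on pairing. The block changed no other call of the 5 genes. The cause of these shifts was not tested.

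Of the 10 genes most like the 5, 6 were shared when ranked by Spearman's rho and 4 when ranked over the 10 group means. The unknown depth, the 2 libraries at 3 am and with gut contents, and the spread at 9 am and 3 pm limit the precision.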
